A study of Drosophila melanogaster with 57 samples.

Results

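Male flies labelled as double deletion 2 (DD2) backcrossed on yw were compared with males of DD2 itself, a comparison that holds genetic background as its stated difference. The labels gave 3 libraries to the backcrossed genotype, CBS/CSE(2) - backcross on yw, and 3 to CBS/CSE(2). One backcrossed library held only 7321 counts and was dropped, so that 5 of the 57 libraries of the series, 2 backcrossed and 3 DD2, carry the comparison. Each library is polyA RNA of whole flies aged 5 days and kept at 23 °C with 20 flies per vial. DD2 came from crosses of the deletion strains CBS-/-(8) and CSE-/-(1), and its deletions carry an mCherry reporter. Flies that carried a new CSE deletion had been crossed to the laboratory strain yw. The control is stock 58492, which carries Cas9 under the Act5C promoter on the X chromosome with alleles of y, w and DNAlig4. The labels give neither the number of backcross generations nor the alleles kept, and no source used here says that replicates came from separate cultures. The p-values therefore measure only spread between libraries. For the male comparisons that spread was estimated over all 23 male libraries used, most of them of other strains.

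Cbs and Cth encode cystathionine β-synthase and cystathionine γ-lyase, the enzymes of transsulfuration, which carries sulfur from homocysteine to cysteine. Both enzymes can also release hydrogen sulfide, as can the sulfurtransferase encoded by CG12279, the gene deleted in MST-/-. Cysteine feeds the synthesis of glutathione, the substrate of glutathione transferases and a main thiol of the cell.

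The 2 libraries labelled as backcrossed DD2 went against their label. Cbs (FBgn0031148, chromosome X, 21045138 to 21049096, plus strand, dm6) had 487 and 429 counts in the libraries labelled as backcrossed DD2, against 1, 3 and 6 counts in DD2 and 689, 740 and 903 in the control. On the CPM scale (counts divided by the library size in units of 1000000, scaled by TMM, the unit of all levels below), Cbs stood at 37.9 and 35.7 in the libraries labelled as backcrossed DD2, against 0.0797, 0.245 and 0.434 in DD2 and 56.3, 54.1 and 60.4 in the control. Cth (FBgn0000566, chromosome 2R, 18627918 to 18629395, plus strand) had 50.0 and 35.0 CPM in the libraries labelled as backcrossed DD2, against 3.66, 3.92 and 3.62 CPM in DD2 and 56.9, 63.4 and 70.1 CPM in the control. Both deleted genes were therefore transcribed in both libraries, at levels that did not overlap those of DD2. The log2 fold change over DD2 was 7.10 (SE 0.30) for Cbs and 3.51 (SE 0.19) for Cth, with adjusted p = 6.5e-12 and 2e-10 by edgeR's quasi-likelihood test with Benjamini-Hochberg adjustment, which gives all adjusted p-values below. Against the control, the 2 libraries were lower by a log2 fold change of -0.63 for Cbs (adjusted p = 0.036) and -0.58 for Cth (adjusted p = 0.029). The dropped library had 0 counts of either gene, where the rates of the other 2 libraries would give 0.248 counts of Cbs and 0.288 of Cth, so it cannot show whether the genes were transcribed. Every comparison below is therefore between libraries with that label and DD2, and it holds the difference in Cbs and Cth as well as any difference in background, which cannot be told apart.

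**Figure D1:**
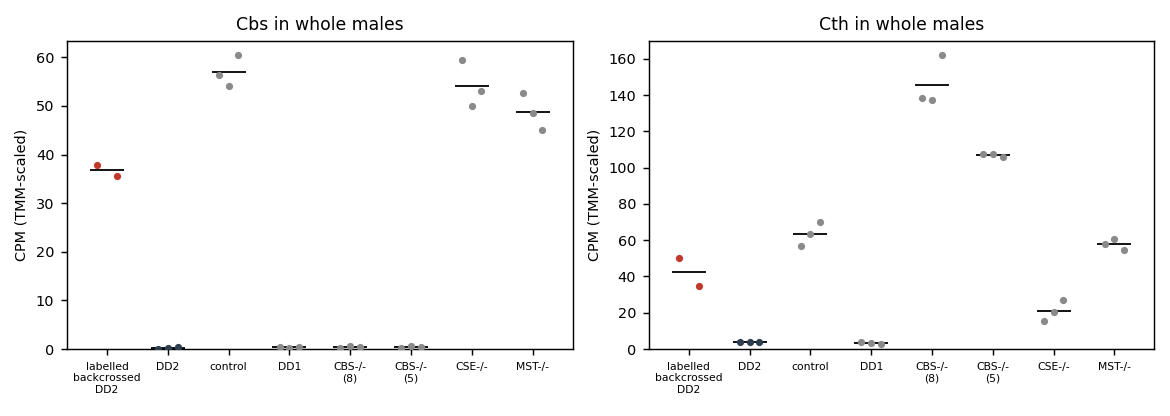
Level of Cbs and of Cth in each of 23 whole-male libraries, in CPM scaled by TMM, one point per library and a line at the group mean, with n = 2 for the libraries labelled as backcrossed DD2 and n = 3 for every other strain. The 2 libraries labelled as backcrossed DD2 stand at 37.9 and 35.7 CPM for Cbs, where DD2, DD1 and both CBS-/- strains lie under 1 CPM.

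Across the transcriptome, 2793 of 13260 genes tested (21.1%) differed between the libraries labelled as backcrossed DD2 and DD2 at an adjusted p under 0.05. Of these, 1451 were higher (10.9% of the genes tested) and 1342 lower (10.1%), and 718 of the higher and 422 of the lower ones differed at least 2-fold. The libraries of the groups did not overlap in 2745 of the called genes (98.3%), so that a lack of overlap marks no called gene out. Thorax genes are those at least as high in control thorax as in control whole flies of the same sex. Scaled on thorax genes the balance turned, with 1120 higher and 1392 lower. It also turned with upper-quartile factors (1356 and 1383) and in a fit of only the groups compared (1115 and 1479). Leaving out DD2 replicate 1 (808 and 895) or 2 (904 and 978) turned it too, as did adding the dropped library (1110 and 1458). The count fell to 1289 without the backcrossed replicate 2 and to 1703 without DD2 replicate 1. DD1 against DD2, 2 double deletion strains that share CSE-/-(1), gave 91 genes (0.686%), 25 higher (0.189%) and 66 lower (0.498%). Against the control, the libraries labelled as backcrossed DD2 gave 2125 genes (16%), 1022 higher (7.71%) and 1103 lower (8.32%), and DD2 gave 2407 (18.2%), 996 higher (7.51%) and 1411 lower (10.6%). These comparisons share libraries. Scaled on thorax genes, the higher genes made up 30.6% of the calls of the first (48.1% by TMM) and 29.8% of those of the second (41.4% by TMM), while for DD1 against DD2 they made up 38.8% (27.5% by TMM). With upper-quartile factors they made up 51.6% of the calls of DD2 against the control. The 5 libraries held 12605008 to 14166324 counts on genes. Between the 2 libraries labelled as backcrossed DD2, 275 genes lay over 2-fold apart on the scale of CPM + 1, against 10 to 237 genes between pairs of DD2 libraries.

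Of 6 genes of hydrogen sulfide production and removal, 2 were higher, Cbs and Cth themselves, and 1 was lower (50% called, against 21.1% of all genes). Sqor, which encodes sulfide quinone oxidoreductase, had 50.4 and 50.6 CPM in the libraries labelled as backcrossed DD2, against 41.0, 43.1 and 37.3 in DD2 (adjusted p = 0.056). CG30022, which encodes the persulfide dioxygenase, fell by 0.65 on the log2 scale (adjusted p = 0.00042), to 28.5 and 23.6 CPM in the libraries labelled as backcrossed DD2, against 46.5, 39.6 and 37.0 CPM in DD2. CG12279 stood at 12.8 and 12.2 CPM in the libraries labelled as backcrossed DD2 and at 10.6, 12.3 and 10.6 CPM in DD2 (adjusted p = 0.68), and shop, the sulfite oxidase gene, did not pass the test either (adjusted p = 0.17). In the methionine cycle 2 of 7 genes passed, 1 in each direction (28.6% called, a share near the 21.1% of all genes). CG10621, a homocysteine S-methyltransferase gene, rose to 123 and 78.9 CPM in the libraries labelled as backcrossed DD2, against 45.1, 35.4 and 35.6 CPM in DD2 and 84.2, 92.5 and 88.3 CPM in the control (log2 fold change 1.39, SE 0.26, adjusted p = 0.00065). Ahcy, which encodes adenosylhomocysteinase, fell to 61.9 and 41.1 CPM in the libraries labelled as backcrossed DD2, against 98.7, 100.2 and 94.4 CPM in DD2 (adjusted p = 0.011), and this call was lost without the backcrossed replicate 2 (adjusted p = 0.20).

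Genes of the sarcomere, the contractile unit of muscle, rose in the libraries labelled as backcrossed DD2. Of 18 tested, 15 were higher and 0 lower, with a median log2 fold change of 1.43, where the median of all genes was 0.01. Act88F, the actin of the indirect flight muscles, had 2018 and 1368 CPM in the libraries labelled as backcrossed DD2, against 57.0, 64.2 and 38.7 CPM in DD2. In the other 21 male libraries Act88F lay between 28.8 and 169 CPM, so both libraries stood above every other one, and the log2 fold change over DD2 was 4.99 (SE 0.40, adjusted p = 4.1e-08). Act79B, an actin of tubular thoracic muscle, reached 2122 and 1927 CPM in the libraries labelled as backcrossed DD2, against 329, 467 and 227 CPM in DD2 (log2 fold change 2.57, SE 0.25, adjusted p = 4.5e-07). Mlc2, which encodes the myosin regulatory light chain, rose by 2.23 on the log2 scale (adjusted p = 8.9e-08) and fln, which encodes flightin of the thick filament, by 2.56 (adjusted p = 0.00026). Mhc, the myosin heavy chain gene, had 4782 and 3999 CPM in the libraries labelled as backcrossed DD2 and 1662, 1912 and 1498 CPM in DD2. For 3 genes of the list the test was not passed. The log2 fold change was -0.11 for sls (adjusted p = 0.73) and 0.32 for bt (adjusted p = 0.51), and Mf, which encodes myofilin, had 0.30 (adjusted p = 0.31). Leaving out any 1 of the 5 libraries left 13 or 14 sarcomere genes higher.

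Cuticle genes rose as well. Of 34 genes of the Cpr family, whose proteins bind chitin, 17 were higher and 0 lower in the libraries labelled as backcrossed DD2, with a median log2 fold change of 1.03. Cpr92F had 284 and 95.6 CPM in the libraries labelled as backcrossed DD2, against 0.239, 0.490 and 0.724 CPM in DD2, and at most 1.09 CPM in any of the other 21 male libraries (log2 fold change 8.57, SE 0.47, adjusted p = 1.9e-10). Cpr49Ae stood at 829.9 and 396 CPM in the libraries labelled as backcrossed DD2, against 46.6, 54.3 and 40.2 CPM in DD2 (log2 fold change 3.71, SE 0.24). Cpr97Ea was represented by 364 counts in the libraries labelled as backcrossed DD2 and 1 in DD2. In each of these 3 genes replicate 1 stood above replicate 2, and both above all DD2 libraries. The adult cuticle protein genes Acp65Aa and Acp1 were higher too. Acp65Aa had 222 and 51.9 CPM in the libraries labelled as backcrossed DD2, against 0.558, 0.572 and 0.217 CPM in DD2 (log2 fold change 8.25, SE 0.58, adjusted p = 6.5e-09). Acp1 had 91.4 and 30.4 CPM in the libraries labelled as backcrossed DD2, against 0.0797, 0.327 and 0.145 CPM in DD2 (adjusted p = 4.5e-08). In the other 21 male libraries Acp65Aa reached at most 0.572 CPM and Acp1 at most 0.539 CPM.

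Further genes near 0 in DD2 were among the 15 largest increases. CG7214 had 740.3 and 428 CPM in the libraries labelled as backcrossed DD2, against 1.83, 3.76 and 1.66 CPM in DD2 and at most 3.76 CPM in any other male library. CG8736 had 108 and 25.1 CPM in the libraries labelled as backcrossed DD2 and 0.319, 0.327 and 0.434 CPM in DD2. Pxd, which encodes a peroxidase, had 243 counts in the libraries labelled as backcrossed DD2 and 4 in DD2, a ratio of 86.5 with an exact 95% counting interval of 33.4 to 320.2. A gene of cuticle tanning and one of stored protein were higher too, each from a list called in both directions. Of 27 eye and body pigment genes tested, 9 were higher and 5 lower (51.9% called, against 21.1% of all genes). Without DD2 replicate 1 the counts were 2 and 2. Of 6 storage protein genes, 2 were higher and 1 lower. Their summed level was 85.3 and 47.9 CPM in the libraries labelled as backcrossed DD2, against 80.8 to 117 CPM in DD2. Tyrosine hydroxylase, encoded by ple, catalyses the entry step of dopamine synthesis and cuticle tanning, and ple stood at 260.1 and 169 CPM in the libraries labelled as backcrossed DD2, against 63.3, 79.2 and 56.9 CPM in DD2 (log2 fold change 1.69, SE 0.26, adjusted p = 0.00012). Lsp1gamma, a larval serum protein gene, had 41.3 and 20.1 CPM in the libraries labelled as backcrossed DD2, against 1.43, 2.29 and 0.868 CPM in DD2 (log2 fold change 4.33, adjusted p = 4e-06). The pigment gene y, below the filter on low counts, had 35 and 0 counts in the libraries labelled as backcrossed DD2, against 3, 0 and 1 counts in DD2 and 3, 1 and 2 counts in the control. Only replicate 1 held y above the counts of the other libraries. Without the filter y was called higher (log2 fold change 3.61, SE 1.04, adjusted p = 0.022), as it was without the backcrossed replicate 2 (adjusted p = 0.00032). The other marker gene, w, had 2.72 and 2.66 CPM in the libraries labelled as backcrossed DD2, against 3.19, 3.60 and 3.62 CPM in DD2 (adjusted p = 0.28).

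**Figure D2:**
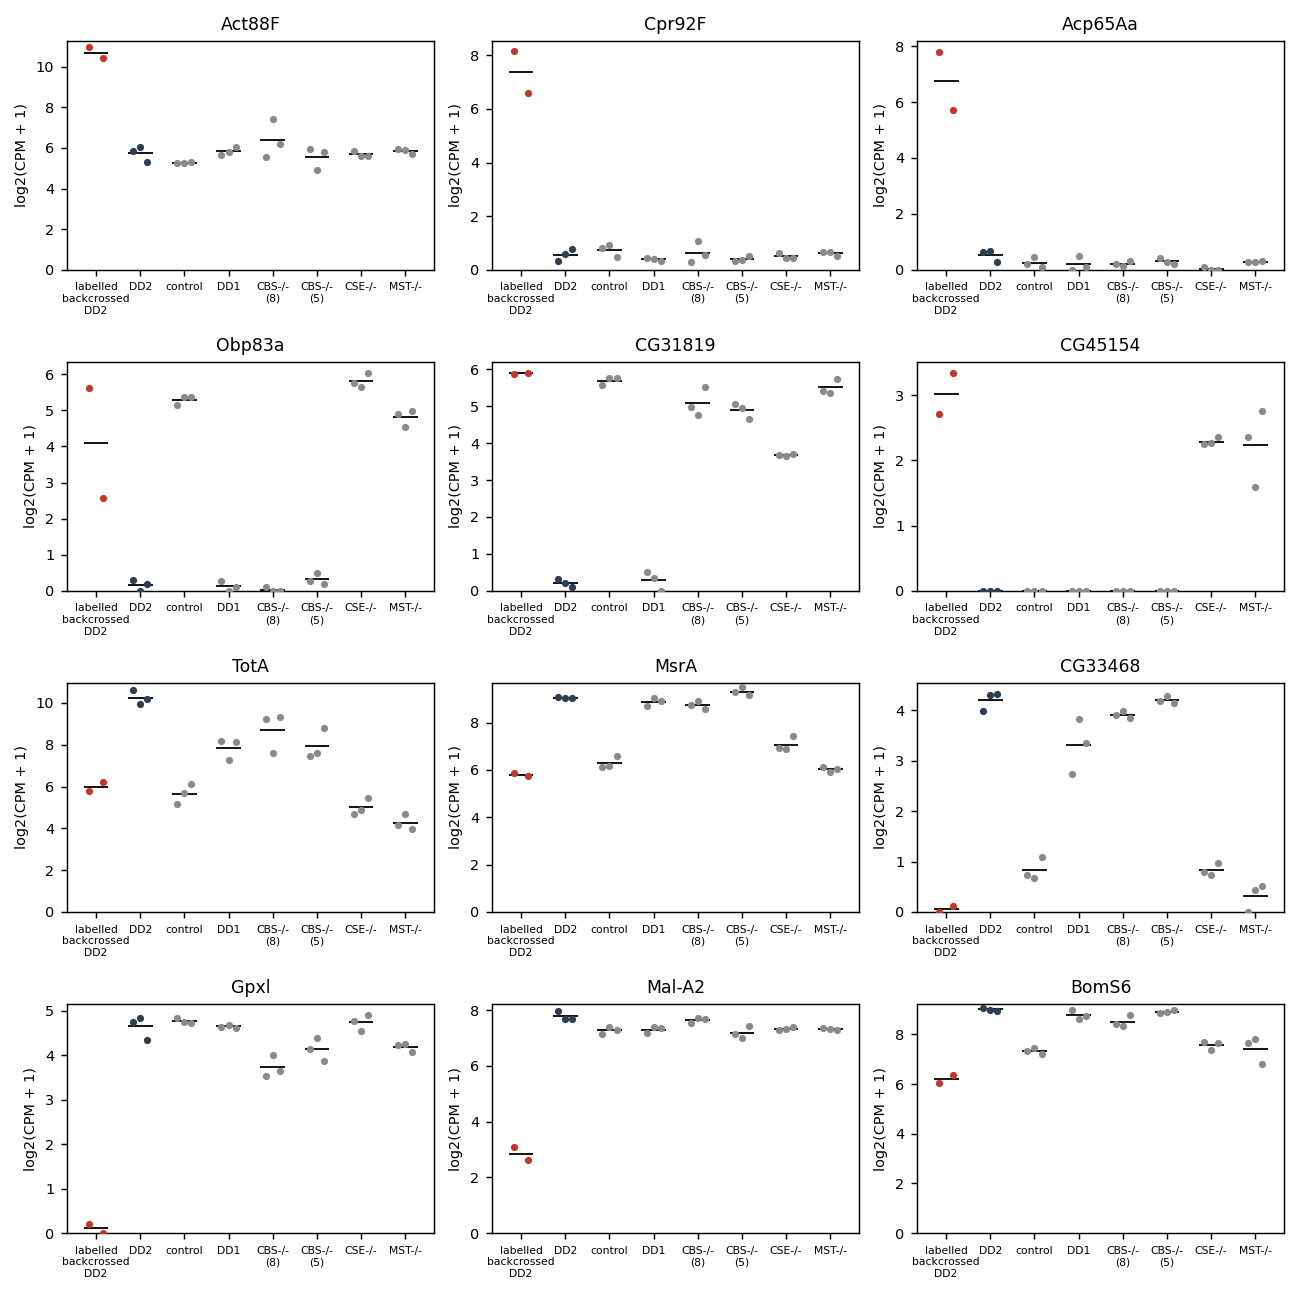
Level of 12 genes in each of 23 whole-male libraries, as log2(CPM + 1), one point per library and a line at the group mean of these log values. Act88F, Cpr92F and Acp65Aa are high only in the 2 libraries labelled as backcrossed DD2, Gpxl and Mal-A2 are low only there, and TotA, MsrA and CG33468 lie low there and in the control, CSE-/- and MST-/- while the CBS-/- and double deletion strains are high.

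Some olfactory genes at or near 0 in DD2 were detected in the libraries labelled as backcrossed DD2. Odorant-binding proteins carry odorants through the fluid around sensory neurons, and of 34 such genes tested 14 were higher and 0 lower, with a median log2 fold change of 0.61. Without the backcrossed replicate 1 the number higher was 9. The summed level of all odorant-binding protein genes was 4165 and 3578 CPM in the libraries labelled as backcrossed DD2 and 2737 to 3571 CPM in DD2. Of 51 chemoreceptor genes 3 were higher and 2 lower (9.80% called, against 21.1% of all genes). Obp83a, an antennal member, had 48.1 and 4.99 CPM in the libraries labelled as backcrossed DD2, against 0.239, 0 and 0.145 CPM in DD2 and 34.5, 40.1 and 40.1 CPM in the control. Its neighbour Obp83b had 24.7 and 3.58 CPM in the libraries labelled as backcrossed DD2, against 0.0797, 0.0817 and 0.0724 CPM in DD2. By counts pooled over each group, Obp83a was 193-fold higher than in DD2 (exact 95% counting interval 82.4 to 597, adjusted p = 1.4e-06) and Obp83b 171-fold (58.0 to 833, adjusted p = 5.4e-07). The antennal gene a5 had 11.4 and 2.08 CPM in the libraries labelled as backcrossed DD2 and 0 counts in all 3 DD2 libraries. With pooled counts a5 was at least 81.2-fold higher, taking 3 counts over the DD2 group as the floor. Because replicate 1 and replicate 2 differ, these pooled folds, intervals and floors are not limits for each library alone. Likewise a10, which encodes an antennal chemosensory protein, stood at 27.1 and 5.41 CPM in the libraries labelled as backcrossed DD2, against 0.239, 0.245 and 0.145 CPM in DD2. For these 4 genes replicate 1 of the libraries labelled as backcrossed DD2 lay within or above the range of the control, and replicate 2 lay below that range but above all DD2 libraries. In females, whose libraries are separate from these, DD2 was lower than the control by a log2 fold change of -3.92 for Obp83a, -3.88 for Obp83b and -4.23 for a5, and the direction was the same with scaling on thorax genes, which put the median of all genes at -0.97 against 0.02 by TMM. That comparison called 6991 of 10548 genes (66.3%), 3633 higher (34.4%) and 3358 lower (31.8%).

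The Turandot genes encode secreted peptides induced by stress and infection, and all 5 tested were lower in the libraries labelled as backcrossed DD2, with a median log2 fold change of -4.30. TotA stood at 53.5 and 73.4 CPM in the libraries labelled as backcrossed DD2, against 1579, 977 and 1187 CPM in DD2 and 35.4, 49.9 and 68.6 CPM in the control (log2 fold change -4.30, SE 0.56, adjusted p = 1.6e-05). TotC had 19.4 and 28.7 CPM in the libraries labelled as backcrossed DD2, against 839, 526 and 740.3 CPM in DD2 (log2 fold change -4.87, SE 0.62, adjusted p = 1.2e-05). TotM had 1.63 and 1.497 CPM in the libraries labelled as backcrossed DD2, against 66.8, 38.1 and 41.8 CPM in DD2. All DD2 libraries stood above both libraries labelled as backcrossed DD2 in these 3 genes. For all 5 genes the control lay nearer to the libraries labelled as backcrossed DD2 than to DD2. DD1 stood lower than DD2 in 3 of the 5, with TotA at a log2 fold change of -2.37 (adjusted p = 0.0088). Among 13 heat shock genes 1 was higher and 3 lower (30.8% called, against 21.1% of all genes), with a median log2 fold change of 0.12. All of these calls rested on the backcrossed replicate 2.

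Bomanins, short peptides induced by the Toll pathway, fell too. Of 17 bomanin and daisho genes, 12 were lower and 0 higher in the libraries labelled as backcrossed DD2, with a median log2 fold change of -1.56. Without the backcrossed replicate 2 the counts were 6 lower and 1 higher. BomS6 had 64.6 and 81.9 CPM in the libraries labelled as backcrossed DD2, against 537, 511 and 497 CPM in DD2 and 162, 176 and 145 CPM in the control (log2 fold change -2.81, SE 0.23, adjusted p = 6e-08). BomT2 had 52.6 and 33.5 CPM in the libraries labelled as backcrossed DD2, against 322, 342 and 261 CPM in DD2 (log2 fold change -2.84, SE 0.33, adjusted p = 4e-06). Among 16 antimicrobial peptide genes, edgeR called 0 in either direction, with 0 at an unadjusted p under 0.05, 0 called by DESeq2 and a median log2 fold change of 0.04.

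**Figure D3:**
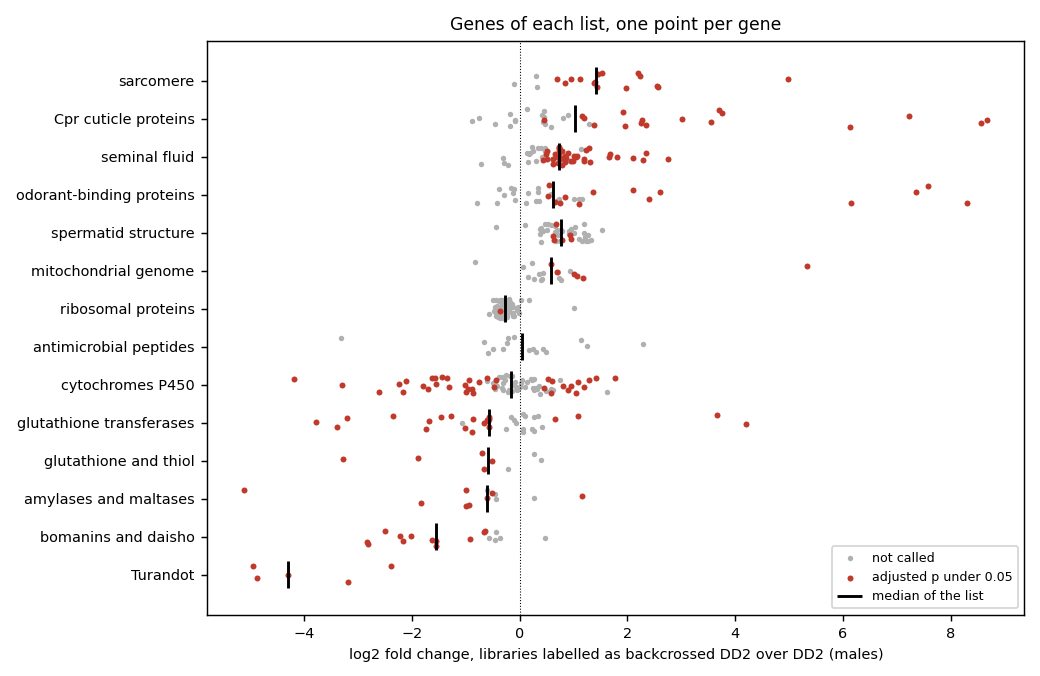
Log2 fold change of each gene of 14 lists, libraries labelled as backcrossed DD2 over DD2, one point per gene, red at an adjusted p under 0.05 and grey otherwise, with a bar at the list median. Sarcomere and Cpr genes have medians of 1.43 and 1.03, while bomanins and Turandot genes have medians of -1.56 and -4.30.

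Thiol and glutathione genes were lower in the libraries labelled as backcrossed DD2. Of 8 genes of glutathione synthesis and thiol repair, 5 were lower and 0 higher, with 3 lower without the backcrossed replicate 2. MsrA, which encodes methionine sulfoxide reductase, had 56.8 and 52.5 CPM in the libraries labelled as backcrossed DD2, against 538, 529 and 527 CPM in DD2 and 69.1, 69.98 and 95.7 CPM in the control (log2 fold change -3.28, SE 0.20, adjusted p = 6.4e-10). Gclm, the modifier subunit of glutamate-cysteine ligase, had 109.6 and 89.2 CPM in the libraries labelled as backcrossed DD2, against 369, 384 and 343 CPM in DD2 and 92.1, 98.0 and 113 CPM in the control (log2 fold change -1.88, SE 0.17, adjusted p = 2.1e-07). All DD2 libraries were high in both genes. Against the control, the log2 fold change of the libraries labelled as backcrossed DD2 was -0.52 for MsrA (adjusted p = 0.048) and -0.02 for Gclm (adjusted p = 0.95). Trxr1, the thioredoxin reductase gene, fell by 0.71 on the log2 scale (adjusted p = 0.00037).

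Of 35 glutathione transferase genes, 17 were lower and 4 higher in the libraries labelled as backcrossed DD2, with a median log2 fold change of -0.56. The count was 10 lower without the backcrossed replicate 2 and 2 higher without the backcrossed replicate 1. Within the GstD class, 6 of 11 were lower and 1 higher, with a median of -1.07. GstD5 had 9.57 and 6.74 CPM in the libraries labelled as backcrossed DD2, against 114.9, 102 and 120.3 CPM in DD2 and 8.09, 11.5 and 10.4 CPM in the control (log2 fold change -3.78, SE 0.34, adjusted p = 1.8e-07). GstD1, whose product conjugates electrophiles such as insecticides, had 425 and 397 CPM in the libraries labelled as backcrossed DD2, against 1408, 1323 and 1217 CPM in DD2 and 722, 836 and 858 CPM in the control (log2 fold change -1.68, SE 0.18, adjusted p = 1.7e-06). Against the control, the log2 fold change of the libraries labelled as backcrossed DD2 was -0.29 for GstD5 (adjusted p = 0.59) and -0.97 for GstD1 (adjusted p = 0.00057). GstE1 fell to 35.7 and 34.3 CPM in the libraries labelled as backcrossed DD2, against 176, 199 and 162 CPM in DD2. Within the same gene cluster GstE5 went up, with 27.5 and 22.6 CPM in the libraries labelled as backcrossed DD2, against 2.47, 1.80 and 1.66 CPM in DD2 (log2 fold change 3.66, SE 0.44, adjusted p = 6.3e-06). GstE4 had 6.77 and 2.08 CPM in the libraries labelled as backcrossed DD2 and 0, 0.327 and 0.362 CPM in DD2 (adjusted p = 0.00013). The GstD and GstE genes are clusters of similar paralogs, so reads may be split among them.

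Of 17 other redox genes, 6 were lower, 2 higher and 9 not called, with a median log2 fold change of -0.19 and 0 higher without the backcrossed replicate 1. Uro, which encodes urate oxidase, had 48.6 and 28.5 CPM in the libraries labelled as backcrossed DD2, against 566, 503 and 525 CPM in DD2 and 21.2, 19.5 and 31.3 CPM in the control (log2 fold change -3.78, SE 0.35, adjusted p = 2.2e-07). The peroxiredoxin gene Prx2 had 284 and 209 CPM in the libraries labelled as backcrossed DD2, against 509, 498 and 493 CPM in DD2 (log2 fold change -1.02, adjusted p = 7.5e-05), and the aldehyde oxidase gene AOX1 fell by 1.46 (adjusted p = 6.3e-06). The iron-storage genes Fer1HCH and Fer2LCH, which encode the ferritin chains, fell by 1.08 and 0.93, and Tsf1, the transferrin gene, fell by 1.23. Tsf1 had 889 and 890.3 CPM in the libraries labelled as backcrossed DD2, against 2388, 1970.0 and 1900.3 CPM in DD2 and 2613, 2499 and 2858 CPM in the control, and so lay below the other 21 male libraries, of which the lowest had 1519 CPM.

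Cytochromes P450, which oxidize hormones and foreign compounds, changed in both directions. Of 79 tested, 24 were lower and 13 higher, with a median log2 fold change of -0.15, and 7 were higher without the backcrossed replicate 2. Cyp6d2 had 3.89 and 3.16 CPM in the libraries labelled as backcrossed DD2, against 63.3, 57.9 and 72.5 CPM in DD2 and 21.7, 23.0 and 20.5 CPM in the control (log2 fold change -4.19, SE 0.32, adjusted p = 1.9e-08). Cyp12c1 had 29.6 and 26.9 CPM in the libraries labelled as backcrossed DD2, against 279.5, 315 and 239 CPM in DD2 and 46.3, 46.5 and 47.7 CPM in the control. The Cyp6d2 level lay below all other male libraries, the lowest of which had 6.52 CPM. Among 30 UDP-glycosyltransferase genes, whose products add sugars to lipophilic compounds, 8 were lower and 5 higher. Leaving out the backcrossed replicate 1 or 2 gave 2 or 3 higher, leaving out the backcrossed replicate 2 or DD2 replicate 1 gave 5 lower, and leaving out DD2 replicate 3 gave 3 higher. Ugt37A3 had 9.18 and 9.15 CPM in the libraries labelled as backcrossed DD2, against 106, 133 and 104 CPM in DD2 (log2 fold change -3.64, SE 0.33, adjusted p = 1.4e-07).

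**Figure D4:**
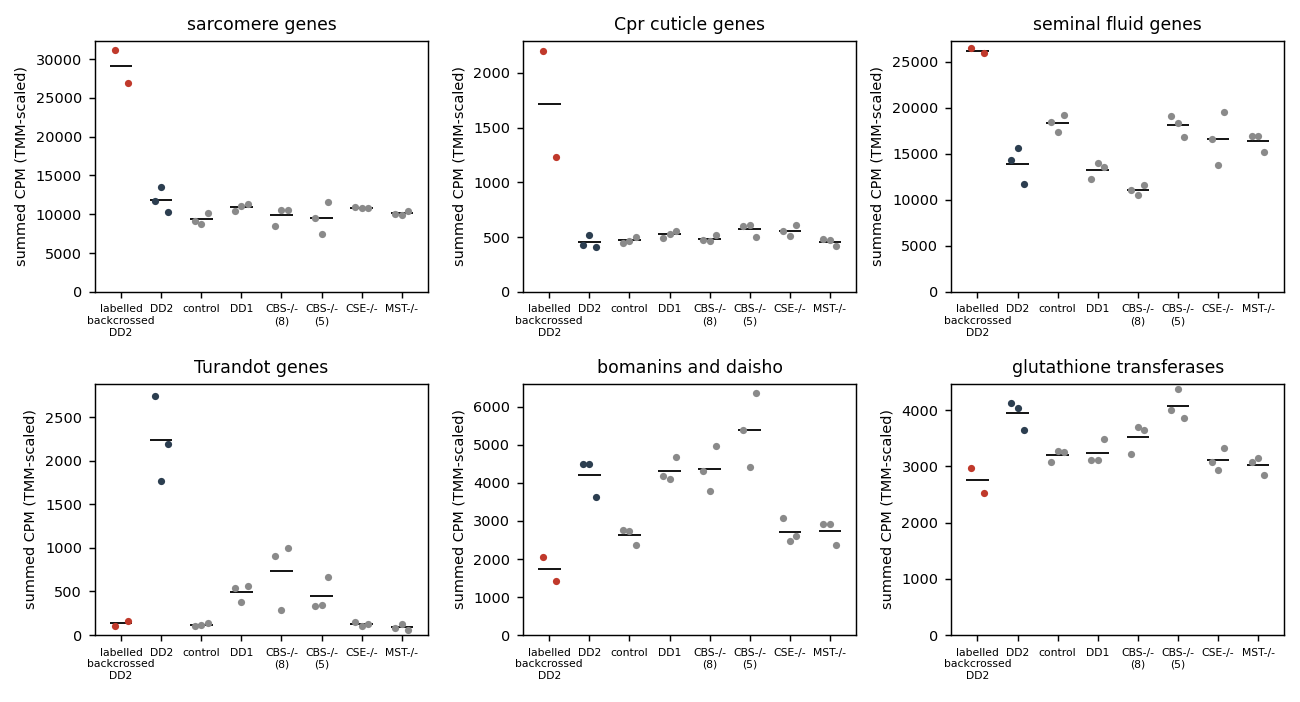
Summed level of the genes of 6 lists in each of 23 whole-male libraries, in CPM scaled by TMM, one point per library and a line at the group mean. The libraries labelled as backcrossed DD2 have the highest sums of sarcomere genes (31181 and 26920 CPM), Cpr genes and seminal fluid genes, and sums of Turandot genes of 104 and 164 CPM, where DD2 lies between 1769 and 2746 CPM.

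Carbohydrate digestion held some of the largest decreases. Mal-A2, a maltase gene, had 7.54 and 5.07 CPM in the libraries labelled as backcrossed DD2, against 246, 203 and 205 CPM in DD2 and at least 127 CPM in each of the other male libraries (log2 fold change -5.11, SE 0.19, adjusted p = 8.4e-13). Amyrel, an amylase-related gene, had 1.01 and 0.249 CPM in the libraries labelled as backcrossed DD2, against 27.7, 22.6 and 22.2 CPM in DD2 and 49.5, 62.0 and 81.3 CPM in the control (log2 fold change -5.22, SE 0.43, adjusted p = 5.5e-08). Both genes were thus lower in the 2 libraries than in DD2 and in the control. Amyrel is not a member of the list of amylase and maltase genes given next. Of 12 amylase and maltase genes, 7 were lower and 1 higher, all 8 of them maltases, and 3 were lower without the backcrossed replicate 2. The higher one, Mal-A5, had 162 and 145 CPM in the libraries labelled as backcrossed DD2, against 70.5, 80.8 and 54.8 CPM in DD2. Of 26 digestive protease genes 3 were higher and 5 lower (30.8% called, against 21.1% of all genes), with 3 lower without DD2 replicate 1 or 2. Most of the lower calls rested on the backcrossed replicate 2. The median log2 fold change was -0.12, and 0.05 without that library.

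Seminal fluid genes, expressed in the male accessory gland and ejaculatory duct, were higher in the libraries labelled as backcrossed DD2. Of 59 tested, 40 were higher and 0 lower, with a median log2 fold change of 0.73. Acp76A, a serpin-like seminal protein gene, had 302 and 316 CPM in the libraries labelled as backcrossed DD2, against 87.4, 117 and 85.8 CPM in DD2 and 108, 97.0 and 117 CPM in the control (log2 fold change 1.67, SE 0.21, adjusted p = 1.1e-05). Acp24A4 had 362 and 340.3 CPM in the libraries labelled as backcrossed DD2, against 71.3, 80.0 and 56.2 CPM in DD2 (log2 fold change 2.34, SE 0.22, adjusted p = 2.1e-07). Both genes lay above every DD2 and control library in both libraries labelled as backcrossed DD2. The gene of the sex peptide, SP, which alters female behaviour after mating, had 172 and 150.4 CPM in the libraries labelled as backcrossed DD2 and 134, 162 and 112 CPM in DD2 (adjusted p = 0.61). Among 7 markers of the accessory gland, 6 were tested and 4 were higher, with summed levels of 3792 to 4191 CPM in the libraries labelled as backcrossed DD2, against 1658 to 2231 CPM in DD2.

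Genes of spermatid structure passed the test in 4 of 38 cases, all higher, a share near the 10.9% of all genes called higher, with a median log2 fold change of 0.77. This count depended on single libraries, with 13 higher without the backcrossed replicate 1, 24 without DD2 replicate 3 and 0 without the backcrossed replicate 2 or DD2 replicate 1 or 2. DESeq2 called 18 of them higher, and scaling on thorax genes gave 0. In whole bodies a larger tissue and more RNA per cell cannot be told apart, here and for muscle, cuticle and gland. Of the 8 testis markers 1 was higher, where 10.9% of all genes were higher. These markers summed to 857 to 1390 CPM in the libraries labelled as backcrossed DD2, against 522 to 816 CPM in DD2. In the control males they summed to 969 to 1348 CPM. Markers of the flight muscle, Act88F, fln and TpnC4, were all 3 higher, with sums of 1860 to 2624 CPM in the libraries labelled as backcrossed DD2, against 181 to 304 CPM in DD2 and 132 to 172 CPM in the control. Among 3 hemocyte markers and among 4 eye markers 1 each was lower, where 10.1% of all genes were lower. Of 7 fat body genes 3 were lower and 0 higher, with 1 lower without either of the backcrossed libraries. Of these fat body genes 42.9% were called, against 21.1% of all genes. Their summed level was 3436 and 4188 CPM in the libraries labelled as backcrossed DD2, against 6524 to 6950 CPM in DD2 and at least 4842 CPM in every other male library. Their part in the lower Turandot, bomanin and Tsf1 levels was not tested. Of 23 ovary genes edgeR called 0, with 1 at an unadjusted p under 0.05 and 0 called by DESeq2, and of 3 yolk protein genes it was 0 by each. The ovary markers summed to 47.2 to 71.6 CPM in the libraries labelled as backcrossed DD2 and 42.1 to 63.3 CPM in DD2, but to 411 to 987 CPM in the control males, and what this adds to the comparisons with the control was not tested. The part of these tissue shares in the other differences was not tested.

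Several genes were present in one group and at or near 0 in the other with little spread. Gpxl, a glutathione peroxidase-like gene on 2R, had 2 and 0 counts in the libraries labelled as backcrossed DD2, against 930 counts over the 3 DD2 libraries, and was 326-fold lower (exact 95% counting interval 90.1 to 2699, adjusted p = 6e-11). All 21 other male libraries had between 10.6 and 28.9 CPM of Gpxl. CG33468 had 0 and 0.0832 CPM in the libraries labelled as backcrossed DD2, against 14.9, 18.8 and 19.1 CPM in DD2 and 0.654, 0.585 and 1.14 CPM in the control. CG31819 had 57.9 and 59.0 CPM in the libraries labelled as backcrossed DD2, against 0.239, 0.163 and 0.0724 CPM in DD2 and 46.5, 53.2 and 53.0 CPM in the control. DD1 averaged 0.227 CPM of CG31819, whereas both CBS-/- strains and CSE-/- averaged 11.8 to 34.0 CPM. CG45154, on X, had 5.52 and 9.15 CPM in the libraries labelled as backcrossed DD2 and 0 counts in all DD2 libraries, and was at least 86.0-fold higher (adjusted p = 6.1e-05). The control, DD1 and both CBS-/- strains also had 0 counts of CG45154, while CSE-/- averaged 3.89 and MST-/- 3.97 CPM. Replicate 1 and replicate 2 of the libraries labelled as backcrossed DD2 lay on the same side of DD2 in each of these 4 genes.

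Among the other large decreases, 3 genes had their highest levels in DD2. CG15784 stood at 116 and 100.2 CPM in the libraries labelled as backcrossed DD2, against 4067, 3647 and 3821 CPM in DD2 and 495, 505 and 569 CPM in the control (log2 fold change -5.15, SE 0.23, adjusted p = 9.2e-12). CG16898 stood at 48.2 and 33.1 CPM in the libraries labelled as backcrossed DD2, against 1554, 1544 and 1613 CPM in DD2 and 73.3, 95.1 and 77.8 CPM in the control (log2 fold change -5.27, SE 0.31). The long noncoding RNA gene lncRNA:CR45215 had 0.855 and 1.497 CPM in the libraries labelled as backcrossed DD2, against 65.0, 61.2 and 58.2 CPM in DD2 and 1.64, 1.32 and 1.40 CPM in the control. Of the 15 largest decreases, the control lay nearer to the libraries labelled as backcrossed DD2 in 10 and nearer to DD2 in 5, by the size of the fitted log2 difference. Of the 15 largest increases it lay nearer to the libraries labelled as backcrossed DD2 in 6 and nearer to DD2 in 9. All 15 of the sarcomere genes called and 16 of the 17 Cpr genes called had the control nearer to DD2. In DD2 females, compared with control females, TotA was higher by 5.94, MsrA by 2.32, Uro by 4.35 and CG15784 by 3.35 on the log2 scale, and these 4 kept their direction with scaling on thorax genes. Gclm did not, with 0.83 by TMM (adjusted p = 4.3e-05) and -0.15 with scaling on thorax genes (adjusted p = 0.62). The genes called higher in the male libraries did not mirror the females as a set. Of 886 such genes tested in both sexes, 52.9% were higher and 13.8% lower in DD2 females, by TMM. Of 1306 genes called lower, 42.0% were higher and 25.7% lower in DD2 females. Over all 10372 genes tested in both, these shares were 34.7% and 32.1%.

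The genes called were spread over all chromosome arms. They made up 18.8% of the tested genes on X, 22.9% on 2L, 23.6% on 2R, 19.8% on 3L, 20.3% on 3R and 22.6% on chromosome 4. Within 1 Mb of Cbs 32 of 113 genes were called (28.3%), against 18.2% of the rest of X, and 18.6% against 5.86% were called and differed at least 2-fold. Within 1 Mb of Cth 66 of 252 genes were called (26.2%), against 23.3% of the rest of 2R, a smaller gap than at Cbs. There, 12.7% against 10.03% were called and differed at least 2-fold. Within 0.5 Mb of Cth 42 of 130 genes were called (32.3%), and between 0.5 and 1 Mb 24 of 122 (19.7%). Shares near the deleted loci were thus above the 21.1% of all genes in 3 of these 4 bins, counting the bins of 0.5 Mb, and no test of position was made. CG45154 lies 101 kb from Cbs, and CG1304, a serine protease gene that had 1.40 and 0.998 CPM in the libraries labelled as backcrossed DD2 against 70.2, 65.1 and 52.4 CPM in DD2, lies 80.6 kb from it on the other side. Gpxl lies 427 kb from Cth, and GstE5 and BomS6 lie 223 and 238 kb from it.

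**Figure D5:**
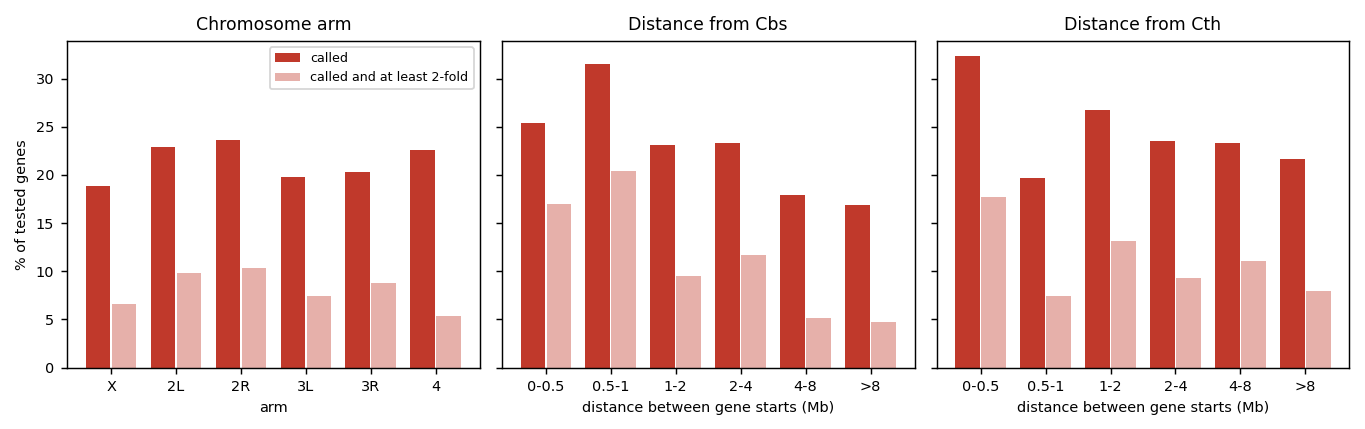
Share of tested genes that were called between the libraries labelled as backcrossed DD2 and DD2, in percent, by chromosome arm and by distance of the gene start from the start of Cbs on X and of Cth on 2R, with the share that also differed at least 2-fold in the paler bars. On X the share of calls lies at 25.4% and 31.5% within 1 Mb of Cbs and at 16.9% beyond 8 Mb.

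Few genes of the ribosome and the germ line passed the test. Among 80 ribosomal protein genes 1 was lower, RpS5a at a log2 fold change of -0.36, a call lost without the backcrossed replicate 2 or DD2 replicate 1 or 2, and the median was -0.27. Without DD2 replicate 3 the counts were 4 lower and 1 higher, and without the backcrossed replicate 1 they were 3 lower. Among 21 genes of the piRNA pathway edgeR called 0, with 1 at an unadjusted p under 0.05 and 1 called by DESeq2, and among 11 meiotic arrest genes of the testis it called 0, with 2 at an unadjusted p under 0.05 and 0 by DESeq2. Of 19 genes of the mitochondrial genome 6 were higher, 3 without the backcrossed replicate 1 and 2 in a fit of only the groups compared, among them mt:ND4, a subunit gene of respiratory complex I, with 3663 and 2652 CPM in the libraries labelled as backcrossed DD2 and 1731, 1571 and 897 CPM in DD2. The 6 mitochondrial genes made up 31.6% of those tested, where 10.9% of all genes were called higher. The summed level of mitochondrial genes was 198930 and 166880 CPM in the libraries labelled as backcrossed DD2, against 93032 to 151430 CPM in DD2, and that of ribosomal RNA was 114170 and 97285 CPM, against 48836 to 82231 CPM in DD2. Both sums lay above every other male library, and their part in the other differences was not tested. The 2 sums overlap, because the ribosomal RNA list includes the mitochondrial gene mt:lrRNA. That gene was the only 1 called of the 4 ribosomal RNA genes tested, whose median log2 fold change was -0.73. DNAlig4, whose mutant allele marks the control stock, had 13.3 and 15.6 CPM in the libraries labelled as backcrossed DD2, against 19.8, 19.8 and 22.1 CPM in DD2 (adjusted p = 0.034), and that call was lost without any single 1 of the 5 libraries.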

How the data were processed

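RNA of whole flies and thoraxes was sequenced in 57 libraries of 19 groups, with groups taken from the labels. The authors deposited read counts per gene, 1 table a library, without normalization. The submitters' processing notes name Trimmomatic 0.38, STAR 2.5.0a, featureCounts 1.5.0-p1 and FastQC, and the build dm6, while the strand setting is not given in the sources used here. Each table lists 17559 genes by FlyBase identifier, of which 17253 matched a symbol and a position in Ensembl release 115. The 23 male libraries used held 9705034 to 18623886 counts on genes, and ambiguous reads and reads on no gene were left out. Counts were fitted with edgeR 4.0.16 in R 4.3.3, with TMM, filterByExpr (minimum count 10, minimum total 15) and 1 mean per group over 8 male groups, and tested by the quasi-likelihood test with Benjamini-Hochberg adjustment over all genes. Genes with an adjusted p under 0.05 are called. Each SE is the size of the fold change over the square root of F. Intervals and floors cover counting error only, on counts pooled over the libraries of a group. The script was tested on simulated data.

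The members and gene lists were chosen with earlier results of these data known. Named genes are the 15 largest increases and 15 largest decreases among called genes whose higher group averages 5 CPM or more and whose libraries do not overlap, the deleted and marker genes, and from each list up to 4 members with the lowest adjusted p, up to 4 with the largest change and those with a defining role. Sqor, shop, Mhc, sls, bt, Mf and SP lie outside this rule and were chosen after their values were seen. Cuticle genes Acp1 and Acp65Aa were taken out of the seminal fluid list and the accessory gland genes Mst57D out of the spermatid list after the data had been seen. Alternatives were DESeq2 1.42.0, upper-quartile factors, TMM on thorax genes, other filters, a replicate block, only the groups compared, and leaving out single libraries. In a further alternative the dropped library was added back.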

Additional observations from a re-analysis of the deposited data

Results flagged for a closer look

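The library labelled as backcrossed DD2 replicate 3, dropped for its depth, held 7321 counts in all. Turandot genes took 8 of them, or 0.109% of its counts (exact 95% binomial interval 0.0472% to 0.215%), against 0.0107% to 0.0140% in the control males. This brought it here as a signal above the controls in data that the main fit leaves out and only an alternative fit uses. The same share was 0.00946% and 0.0153% in the other 2 libraries labelled as backcrossed DD2 and 0.172% to 0.266% in DD2. Sarcomere genes took 1.09% of its counts (0.867% to 1.36%), against 2.83% and 2.51% in the other 2 libraries with that label and 1.10% to 1.31% in DD2. In both lists the dropped library lay outside the range of the 2 libraries of its own label. For Cpr genes (0.0149% to 0.140%) and glutathione transferases (0.199% to 0.471%) its interval reached that range. For seminal fluid, bomanin and daisho, ribosomal protein and mitochondrial genes its interval did not.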

How the results depend on the processing

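With 2 and 3 libraries per group at 12605008 counts or more each, single libraries set much of the precision. For the libraries labelled as backcrossed DD2 against DD2, the 2793 calls became 1289 to 3173 when 1 library was left out, the lowest without the backcrossed replicate 2, where the remaining library is assumed to vary like the other groups. The range was 1269 to 1818 for the libraries labelled as backcrossed DD2 against the control, 1415 to 2683 for DD2 against the control, 24 to 146 for DD1 against DD2 and 5088 to 7677 for DD2 females against control females. Requiring a fold change of at least 2 gave 1140, 989, 1070, 58 and 2834 calls in these 5 comparisons. DESeq2 called 176 genes between DD1 and DD2, and a fit of only the groups compared called 3663 for DD2 against the control. The cause was not tested. In females the higher genes made up 52.0% of the calls by TMM, 12.2% with scaling on thorax genes and 62.5% with upper-quartile factors. All other settings kept the main count within 1.5 times, with 2512 to 3152 calls. Of the 161 tested genes that the rule for named genes gave, 159 were called, 104 of them in every setting that could test them, and 55 lost the call in at least 1 setting, 44 of them without the backcrossed replicate 2. None reversed. In a fit of only the groups compared, 2 antimicrobial peptide genes, 2 meiotic arrest genes and 1 piRNA pathway gene were lower, where the fit over all male groups called 0, and 2 digestive protease genes were lower in place of 5.

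With the replicate number as a block, 2663 genes were called between the libraries labelled as backcrossed DD2 and DD2. The labels do not say that a number pairs samples, only 2 numbers are shared, and the deviations of same-numbered libraries correlated at 0.256 and -0.268 across genes. With 2 libraries labelled as backcrossed DD2, the deviations of replicate 1 and replicate 2 mirror each other. The correlations therefore cannot show whether numbers pair samples. Replicate 2 of that label and DD2 replicate 3 correlated at 0.4.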
